A study of Mus musculus with 6 samples.

Results

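The nuclear hormone receptors are a family of transcription factors, and 38 of their genes were listed for this account. A probe was found for 31 of them through the RefSeq transcript accession that the array files give for each probe. The other 7, Ppard, Thra, Vdr, Nr3c2, Esrrg, Nr2c2 and Nr1d2, were not analysed here. The 31 genes are a small share of the 13971 named genes and the 34175 features (named genes plus unnamed probes) measured on each array.

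The study compared liver RNA of 3 wild-type mice with that of 3 mice carrying human c-Src, a tyrosine kinase gene, placed behind the mouse metallothionein promoter. All 6 mice were C57BL/6 and 14 months old, and each liver was hybridised to its own 1-colour array. The arrays keep the numbers of the mice in the labels (wild-type 1, 2 and 4; transgenic 1, 3 and 4); the runs of wild-type 3 and transgenic 2 were left out by the study because their signals were very low. The transgene can be switched on further with zinc, and the labels state neither whether these mice had received it nor whether the livers held tumours, nor the sex of any mouse. The number of founder lines behind the transgenic mice is not stated in the sources used here either.

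Most nuclear receptors bind DNA through a zinc finger domain. Many change the transcription of their targets when a small lipophilic ligand such as a steroid, bile acid, oxysterol, retinoid or thyroid hormone binds them. Several work as heterodimers with a retinoid X receptor, the steroid receptors are held by heat shock protein chaperones until ligand binds, and the orphan receptors, among them the NR4A genes, have no established natural ligand or are controlled mainly through their abundance. In the liver this family governs the metabolism of drugs, bile acids, cholesterol, fat and glucose. Because whole liver was measured, a lower signal from fewer cells of a type and one from less RNA per cell cannot be told apart.

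The mouse Src probe was read first, as a check of the labels. Its normalized log2 signal was 6.65, 7.21 and 6.62 in wild-type livers against 9.67, 8.48 and 7.71 in transgenic livers. Every transgenic array was above every wild-type array, and the group means differed by 1.79 ± 0.51 (log2, SE) or 3.47-fold. The limma adjusted p was 0.691, and an exact two-sided permutation test gave p = 0.1, the smallest value that 3 arrays against 3 can give. Whether this probe reads the human transcript as well as the mouse one was not tested. Median deposited signals were 53.8 to 93.4 in wild-type livers and 94.8 to 117 in transgenic livers, so transgenic arrays were brighter before normalization. Between 62.6% and 71.7% of mouse probes were above background, and 0.726% to 7.55% of spots lay in bright or dim patches (within 4 rows and columns, a median deviation over 0.5 log2). The error of each difference reflects the spread of that gene as well as the small number of arrays. Liver identity was checked with hepatocyte markers: all 8 with a probe, Hnf4a among them, were above background on all 6 arrays. Of the other cell types' marker lists, the one for T, B and NK cells had 2 of 10 genes at an unadjusted p under 0.05, Cd3g (-0.74 ± 0.29) and Nkg7 (-0.56 ± 0.22), both lower in the transgenic livers. Of these 10, 7 had negative differences and 3 positive ones: Cd3e (1.01), Cd79a (0.56, groups apart upwards) and Cd4 (0.17). In 3 of the 10 (Cd3g, Nkg7 and Klrb1c) the groups were apart downwards and in 1 upwards, beside 5.9% and 10.1% of all features. With the local deviation of each spot subtracted, Cd3g was at -0.63, Nkg7 at -0.35 and Cd79a at -0.06, with overlapping groups in all 3. Klrb1c (-0.65) and Ms4a1 (-1.97) then had groups apart downwards, and Cd3e (0.60) and Cd79b (0.37) had positive differences. The Kupffer cell, endothelial, stellate, cholangiocyte, neutrophil, exocrine pancreas, adipocyte, muscle and adrenal or gonad lists had 0 genes at that unadjusted level (adjusted p, limma: 0 in every list). All 4 adipocyte genes with a probe had negative differences (median -1.23; summed signal 694 to 776 in wild-type and 313 to 548 in transgenic livers), though only 2 were above background on at least 3 arrays, and 6 of 7 endothelial genes did (median -0.16). Summed signal of the 5 Kupffer cell genes was highest on transgenic 4 (6437, against 3270 to 3917 on the other arrays), the array with the highest Pgr signal. The part of cell makeup in the receptor values was not tested.

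Most receptor genes were detected. A probe counted as above background when its signal passed the median of the bacterial control spots by more than 3 scaled median absolute deviations. By this measure 25 of the 31 genes were above background on all 6 arrays, 5 on some arrays, and Rarg, the retinoic acid receptor gamma gene, on none. The 5 were Nr4a1, Nr2f1, Esr1, Esr2 and Rorb, and 28 of the 31 passed on at least 3 arrays. Esr1 passed on the 3 transgenic arrays alone.

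No receptor gene passed the test between the groups. With limma and Benjamini-Hochberg adjustment over all 34175 features, 0 members and 0 features of any kind were called at an adjusted p under 0.05 (0% of features), and the members' adjusted p ran from 0.691 to 0.985. At an unadjusted p under 0.05, 3 of the 31 genes (9.68%) were higher in the transgenic livers, beside 4.37% of all features, and 0 were lower, beside 2.72% of all features. These 3 were Nr4a1, Esr1 and Pgr, whose exact two-sided permutation p was 0.1, 0.1 and 0.2 in that order. All 3 transgenic values lay above all 3 wild-type values for Nr4a1, Esr1 and Thrb (9.68% of members, beside 10.1% of all features). They lay below for Nr1h3, Rxrb, Esrra and Nr6a1 (12.9% of members, beside 5.9% of all features). Esr1 is in both upward counts although 0 of its 3 wild-type signals were above background, so its p and its separation rest on signals not well measured. The median difference of the 31 genes was 0.085 (log2, transgenic minus wild-type), with 17 positive and 14 negative, and the median of all features was 0.02. The share of genes with groups apart upwards was therefore near that of all features. No test over the list was made.

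**Figure D1:**
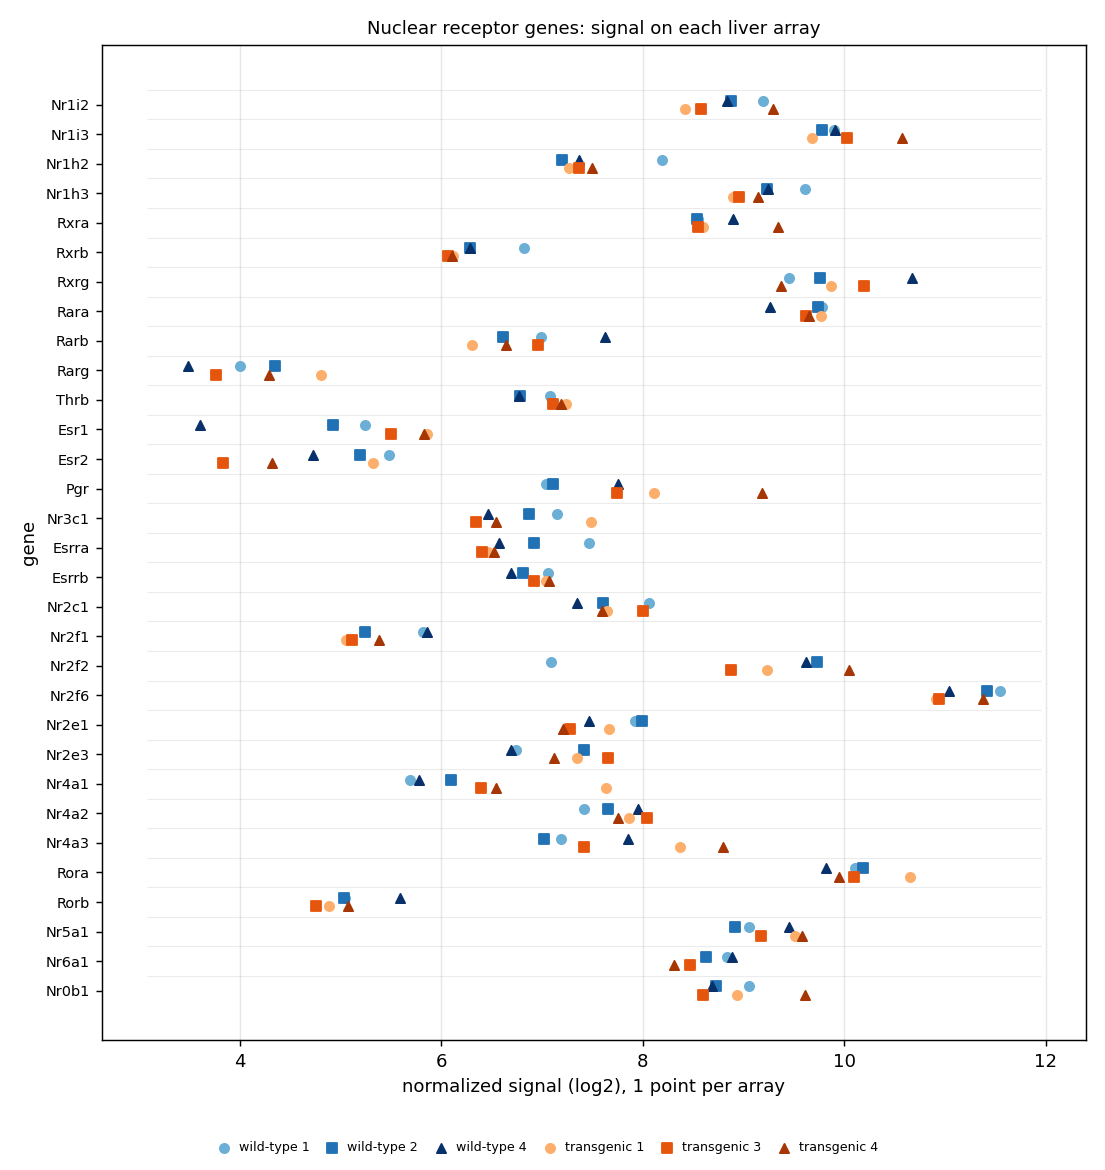
Normalized log2 signal (horizontal axis) of each of the 31 receptor genes (vertical axis) with 1 point per array, wild-type arrays in blue and transgenic arrays in orange. Each gene is read along its own row only, since a probe's brightness sets its position; the 3 transgenic points of Esr1, Nr4a1 and Thrb lie to the right of their wild-type points, and those of Nr1h3, Rxrb, Esrra and Nr6a1 to the left.

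The NR4A receptors, orphan receptors that are transcribed rapidly after many stimuli, had positive differences in all 3 genes. Nr4a1 (Nur77), the first of them, read 5.69, 6.10 and 5.78 in wild-type livers against 7.63, 6.40 and 6.55 in transgenic livers (log2). Its groups did not overlap, and transgenic 1 stood more than 1 log2 unit above the other 5 arrays. The difference was 1.00 ± 0.37 (log2, SE, n = 3 mice a group; limma adjusted p = 0.691), and 2 of the 3 wild-type arrays were above background. Nr4a3 (Nor1) read 7.19, 7.02 and 7.85 in wild-type livers against 8.37, 7.42 and 8.79 in transgenic livers, a difference of 0.84 ± 0.42 (limma adjusted p = 0.691). Here transgenic 1 and transgenic 4 were high, while transgenic 3 lay below wild-type 4, so the groups overlapped. The spots around the Nr4a3 probe on transgenic 4 deviated by 0.54 (log2), a bright patch, and with the local deviation subtracted from every spot the Nr4a3 difference was 0.535. Nr4a2 (Nurr1) read 7.42, 7.66 and 7.95 in wild-type livers and 7.86, 8.04 and 7.75 in transgenic livers, a difference of 0.21 ± 0.22 (limma adjusted p = 0.799). Its groups overlapped.

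The 250 bases before the start of each NR4A gene are shown because the 3 genes had positive differences and share a short element there. The sequences are those of RefSeq on GRCm38.p6 and run 5′ to 3′ on the gene's own strand. Capitals mark TGACG or its reverse complement CGTCA, the core of the element that CREB family factors bind. The stretch lies at chr15:101266596-101266845 (plus strand) for Nr4a1, at chr2:57124004-57124253 (minus strand) for Nr4a2 and at chr4:48045055-48045304 (plus strand) for Nr4a3.
Nr4a1: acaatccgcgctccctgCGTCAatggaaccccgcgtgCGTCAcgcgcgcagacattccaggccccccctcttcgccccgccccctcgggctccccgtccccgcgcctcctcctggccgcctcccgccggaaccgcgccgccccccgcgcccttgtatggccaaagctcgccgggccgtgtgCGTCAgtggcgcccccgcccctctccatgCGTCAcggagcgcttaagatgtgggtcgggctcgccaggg
Nr4a2: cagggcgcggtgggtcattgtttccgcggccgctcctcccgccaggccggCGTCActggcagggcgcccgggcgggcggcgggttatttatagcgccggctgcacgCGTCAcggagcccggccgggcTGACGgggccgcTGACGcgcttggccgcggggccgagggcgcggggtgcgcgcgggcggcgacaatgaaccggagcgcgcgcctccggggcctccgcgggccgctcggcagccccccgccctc
Nr4a3: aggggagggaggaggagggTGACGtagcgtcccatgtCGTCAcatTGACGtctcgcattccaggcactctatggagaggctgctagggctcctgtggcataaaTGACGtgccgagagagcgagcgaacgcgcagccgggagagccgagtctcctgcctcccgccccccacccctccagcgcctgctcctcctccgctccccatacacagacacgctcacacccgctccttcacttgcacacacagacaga
Each of the 3 windows holds 4 matches, counting both strands, with no overlap between matches. Of all 32851 windows of this length, 17.8% hold at least 1 match and 0.137% (45 windows) hold 4 or more. Of the 43 windows of the 29 receptor genes present in the table, 11 (25.6%) hold at least 1, and outside the NR4A genes the most was 3. The motif was picked with these sequences in view, and the 11 windows include the 3 of the NR4A genes, so that share is no independent count. GC content was 74.4%, 80.0% and 63.6% in the order printed, and its share in the matches was not tested. AGGTCA, a half-site bound by many but not all of these receptors, was found in 6 of the 43 windows (14.0%), the same percentage as over all windows (14.0%). A match of letters is not a site of binding.

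Other immediate early genes, such as those of the Fos, Jun and Egr families, were also high on the array where Nr4a1 was highest. Over the 17 genes of that list with a probe, none of them an NR4A gene, the mean log2 difference from the wild-type mean was 0.01, 0.20 and -0.21 in wild-type livers against 1.66, 0.14 and 0.21 in transgenic livers. In this mean, transgenic 1 thus stood apart from the other 5 arrays. Of the 17, 2 had an unadjusted p under 0.05, both higher (Junb, 1.14 ± 0.33, and Myc, 1.31 ± 0.53), beside 4.37% of all features. An adjusted p under 0.05 in limma was reached by 0. In 5 of the 17 the groups were apart upwards and in 0 downwards, beside 10.1% and 5.9% of all features. Positive differences were found in 15 and negative ones in 2. The list's median was 0.58, beside 0.02 for all features. Without transgenic 1 the Nr4a1 difference was 0.62, with groups still apart, and the Nr4a3 difference 0.75. The part of these genes in the NR4A values was not tested.

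**Figure D2:**
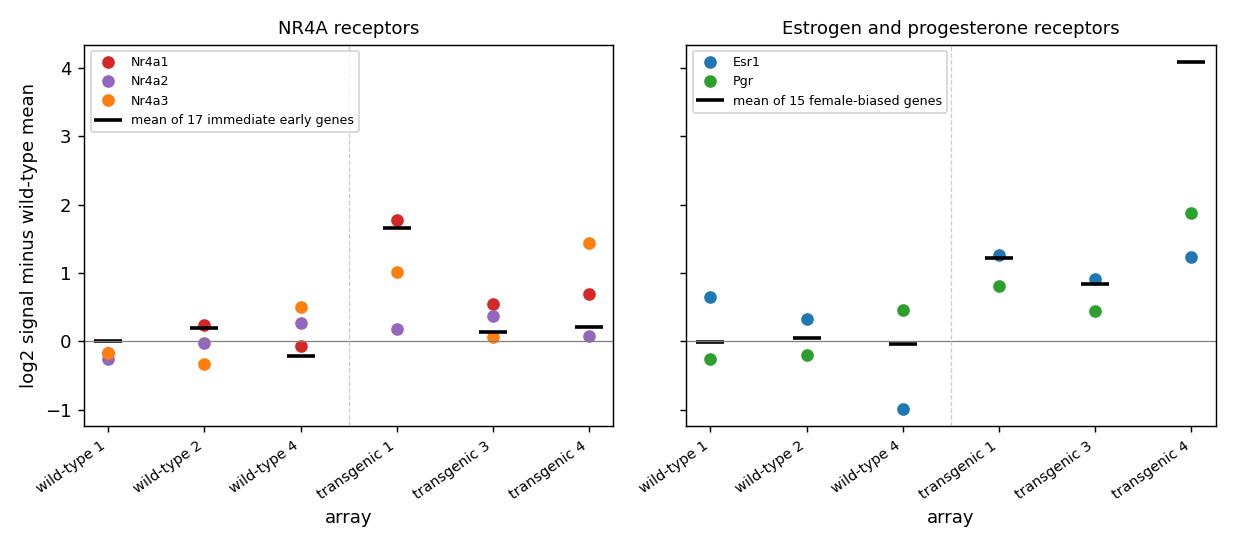
Log2 signal minus the wild-type mean (vertical axis) on each array (horizontal axis) for the NR4A genes with the mean of 17 immediate early genes (left), and for Esr1 and Pgr with the mean of 15 female-biased liver genes (right). On transgenic 1 the immediate early mean is 1.66 and on the other transgenic arrays 0.14 and 0.21, while the female-biased mean is 4.08 on transgenic 4.

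Among the steroid receptors, the estrogen receptor alpha gene Esr1 and the progesterone receptor gene Pgr had positive differences at an unadjusted p under 0.05. Esr1 read 5.24, 4.92 and 3.61 in wild-type livers against 5.86, 5.50 and 5.83 in transgenic livers (log2). No wild-type array reached the lowest transgenic one, and wild-type 4 was far lower than the rest. Esr1 was above background on 3 of 3 transgenic and 0 of 3 wild-type arrays, so its difference of 1.14 ± 0.44 (limma adjusted p = 0.691; group means 4.59 and 5.73) is bounded only as at least 1.12-fold higher. That bound sets the transgenic mean against the lowest signal above background on each wild-type array, or the probe's own where higher. On a scale with 50 added to each signal before log2, which shrinks the differences of dim probes, the Esr1 difference was 0.45.

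Pgr, itself a classical target of the estrogen receptor, read 7.04, 7.10 and 7.75 in wild-type livers against 8.11, 7.75 and 9.18 in transgenic livers. Transgenic 4 was the highest by about 1 log2 unit, and transgenic 3 lay just under wild-type 4. The difference was 1.05 ± 0.43 (limma adjusted p = 0.691). The glucocorticoid receptor gene Nr3c1 read 7.15, 6.87 and 6.46 in wild-type livers and 7.49, 6.34 and 6.55 in transgenic livers, a difference of -0.03 ± 0.37 (limma adjusted p = 0.985). Esr2, the estrogen receptor beta gene, was above background on 1 transgenic array alone, and its difference of -0.64 ± 0.43 compares signals that were mostly not well above background.

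Estrogen receptor targets and sex-biased liver genes gave the following values beside these. Of the 7 listed estrogen receptor targets with a probe, which include Esr1 and Pgr themselves, 7 had positive differences and 2 (those same 2 genes) an unadjusted p under 0.05; Tff1, a secreted trefoil peptide, was at 0.64 ± 0.29, or 0.27 after subtracting the local deviation of each spot. Female-biased genes averaged -0.01, 0.05 and -0.04 in wild-type livers against 1.23, 0.83 and 4.08 in transgenic livers over 15 genes. Of these, 4 had an unadjusted p under 0.05, all higher, beside 4.37% of all features. Male-biased genes averaged 0.07, 0 and -0.07 against -0.88, -0.40 and -1.64 over 13 genes. Of the 13, 6 had an unadjusted p under 0.05, all lower, beside 2.72% of all features. No gene of either list passed the adjusted threshold in limma. Transgenic 4 was the most extreme array in both lists, and it also had the highest Pgr signal among the 6. At the Y-linked genes Ddx3y and Eif2s3y the log2 signal on transgenic 4 was 2.74 and 4.94, against lowest values of 6.75 and 8.63 on the other 5 arrays, while Kdm5d was at 9.03 there. The part of sex in the Esr1 and Pgr values was not tested. With transgenic 4 left out, the Esr1 difference was 1.09 and the Pgr difference 0.63, and neither gene had an unadjusted p under 0.05 in limma.

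The chaperones that hold steroid receptors before ligand binds gave the following values. Of 11 with a probe, 3 were higher at an unadjusted p under 0.05 and 0 lower, beside 4.37% and 2.72% of all features. In 5 the groups were apart upwards and in 0 downwards, beside 10.1% and 5.9% of all features. The adjusted threshold in limma was passed by 0, and the median was 0.26, beside 0.02 for all features. Fkbp5, an immunophilin that binds the glucocorticoid receptor complex and is itself a glucocorticoid target, read 7.83, 7.71 and 7.44 against 8.28, 9.03 and 9.59 (1.31 ± 0.36). Dnajb1, an HSP40 co-chaperone, read 8.84, 8.56 and 8.78 against 12.51, 10.77 and 9.74 (2.28 ± 0.67). Hsp90aa1, the inducible HSP90, read 9.73, 9.58 and 9.17 against 11.47, 11.0 and 9.87 (1.29 ± 0.44). The groups did not overlap in any of these genes, but the order of the transgenic arrays differed: Dnajb1 and Hsp90aa1 were highest on transgenic 1 and Fkbp5 on transgenic 4.

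Of 13 glucocorticoid receptor targets, 3 had an unadjusted p under 0.05, all higher, beside 4.37% of all features, and the median was 0.29. The 3 were Fkbp5 and the metallothioneins Mt2 (4.88 ± 0.44, limma adjusted p = 0.346) and Mt1 (3.71 ± 0.53, limma adjusted p = 0.691). The transgene's own promoter is that of a metallothionein gene and is switched on further by zinc, which the labels do not say was given or withheld. The part of zinc in the Mt1 and Mt2 values was not tested.

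**Figure D3:**
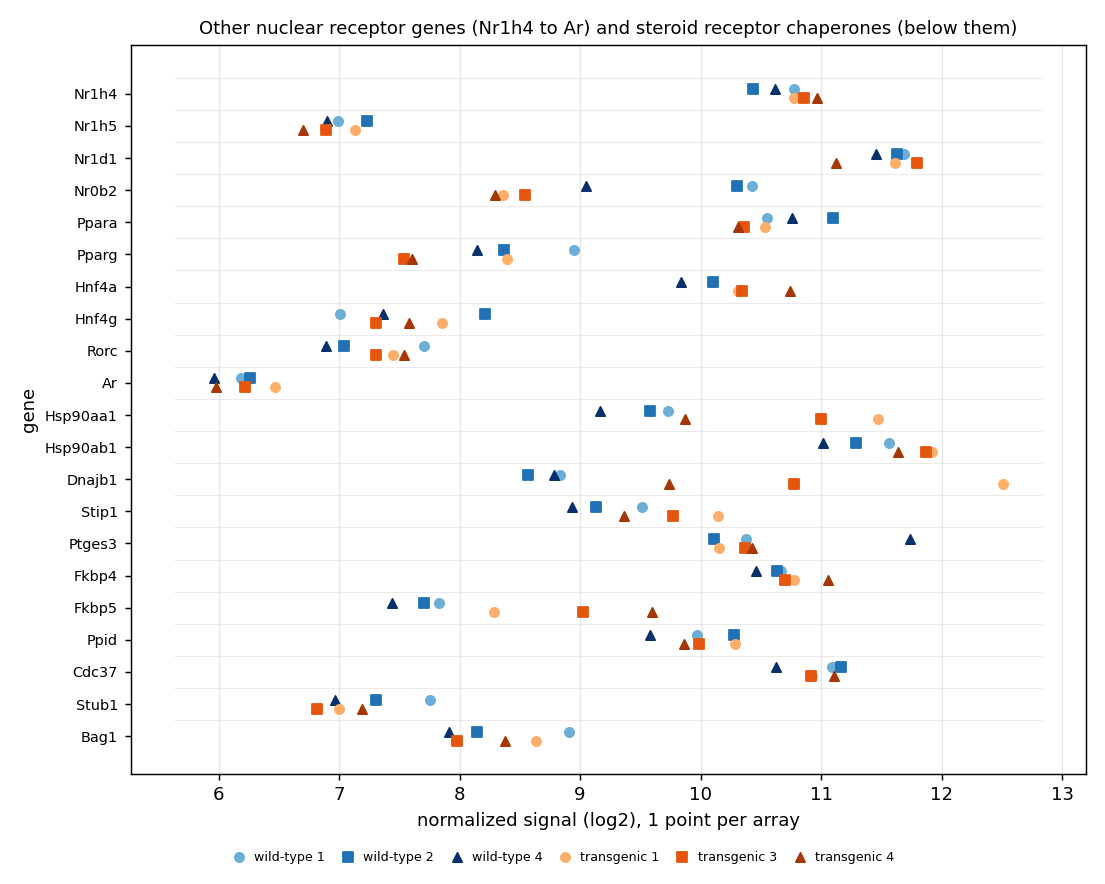
Normalized log2 signal (horizontal axis) on each array for 10 nuclear receptor genes outside the 31 (top) and 11 steroid receptor chaperones (bottom), with wild-type arrays in blue and transgenic arrays in orange. The 3 transgenic points of Nr0b2 lie left of all wild-type points, and those of Hsp90aa1, Dnajb1 and Fkbp5 lie right of theirs.

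The sensors of drugs and oxysterols, which dimerise with retinoid X receptors, gave small differences. Nr1h3, the liver X receptor alpha gene that controls cholesterol export and lipogenesis, read 9.61, 9.23 and 9.24 in wild-type livers against 8.89, 8.95 and 9.14 in transgenic livers. All transgenic values were lower, with wild-type 1 the highest array. The difference was -0.36 ± 0.20 (limma adjusted p = 0.704), and after subtracting each spot's local deviation it was -0.21 with overlapping groups. Nr1h2 (liver X receptor beta) was at -0.21 ± 0.30, with wild-type 1 above the other 5 arrays.

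Nr1i3, the constitutive androstane receptor gene, read 9.90, 9.78 and 9.91 against 9.68, 10.03 and 10.57, and Nr1i2, the pregnane X receptor gene, 9.20, 8.88 and 8.84 against 8.42, 8.58 and 9.29. Both overlapped between the groups, with transgenic 4 the highest of all arrays in each; the differences were 0.24 ± 0.27 and -0.21 ± 0.29 (limma adjusted p = 0.811 and 0.841). Of 12 listed targets of these receptors, 2 had an unadjusted p under 0.05, both higher, beside 4.37% of all features: Cyp2b9 (4.00 ± 0.83) and Cyp2b13 (3.30 ± 1.19). Both are also on the female-biased list and were highest on transgenic 4 (11.99 and 11.48). The median over the 12 was 0.17. Liver X receptor targets gave 1 of 10 at that level, Lpl, the lipoprotein lipase gene (0.87 ± 0.35), with a median of -0.21. Srebf1, the lipogenic regulator, was at -0.71 ± 0.37 with overlapping groups, and at -0.86 with groups apart downwards after local correction. Pltp, a phospholipid carrier, was at -0.58 ± 0.30 with groups apart downwards, and at -0.48 with overlapping groups after that correction.

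Retinoid X receptors are the shared dimer partners. Rxrb read 6.82, 6.29 and 6.28 in wild-type livers against 6.12, 6.06 and 6.11 in transgenic livers. The groups did not overlap, and the transgenic arrays were close together (SD 0.03, against 0.31 in wild-type), with wild-type 1 the array farthest above. The difference was -0.37 ± 0.22 (limma adjusted p = 0.71); with the local deviation subtracted it was -0.27 and the groups overlapped. Rxra, the main liver form, was at 0.17 ± 0.28 and Rxrg at -0.15 ± 0.39, both with overlapping groups. The Rxra spot of transgenic 3 lay in a bright patch (0.84), and its difference after local correction was -0.33.

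The retinoic acid receptor genes Rara and Rarb differed by 0.085 ± 0.22 and -0.44 ± 0.33, with overlapping groups in both. Rarb lay in bright patches on wild-type 1 (0.79) and transgenic 3 (1.12). The Rarg probe, not above background on any array, gave 0.34 ± 0.36. Of 6 retinoic acid receptor targets, 0 had an unadjusted p under 0.05 in limma; Cyp26a1, which breaks down retinoic acid, read 9.76, 8.39 and 8.30 against 8.21, 7.67 and 7.96 (-0.87 ± 0.43), with groups apart, or -0.69 with overlapping groups after local correction.

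Thrb, the thyroid hormone receptor beta gene and the main thyroid receptor of liver, read 7.08, 6.78 and 6.77 in wild-type livers against 7.24, 7.10 and 7.19 in transgenic livers. All transgenic arrays were higher, though the lowest of them exceeded wild-type 1 by little. The difference was 0.30 ± 0.19 (limma adjusted p = 0.714), and with the local deviation subtracted it was 0.10 with overlapping groups. Of 7 thyroid hormone receptor targets, 0 had an unadjusted p under 0.05 in limma, and their median was 0.05; Hr, a corepressor, was at 0.32 ± 0.19 and Me1, malic enzyme, at 0.46 ± 0.40.

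Esrra, the estrogen-related receptor alpha gene, an orphan receptor of mitochondrial energy metabolism, read 7.46, 6.92 and 6.57 in wild-type livers against 6.47, 6.41 and 6.52 in transgenic livers. All transgenic values were lower, but wild-type 4 lay next to them, and the wild-type spread (SD 0.45) was wide against the transgenic one (SD 0.06). The difference was -0.52 ± 0.27 (limma adjusted p = 0.691), and it was -0.49 with groups still apart after local correction. Esrrb was at 0.16 ± 0.19, or -0.04 after local correction. Of 9 targets of estrogen-related receptors and PPAR delta, 0 had an unadjusted p under 0.05 in limma and 0 had groups apart, with a median of 0.06. Among 18 coactivators and corepressors 1 had an unadjusted p under 0.05: Ppargc1b, a coactivator of Esrra, read 8.59, 8.46 and 8.25 against 8.08, 7.38 and 7.96 (-0.63 ± 0.26), with groups apart downwards, or -0.40 with overlapping groups after local correction.

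The orphan receptors of the COUP, testicular and tailless groups had overlapping values throughout. Nr2f1 (COUP-TFI), above background on 3 arrays, read 5.82, 5.24 and 5.85 against 5.06, 5.11 and 5.38. Only transgenic 4 exceeded the lowest wild-type array, and the difference was -0.45 ± 0.25 (limma adjusted p = 0.697). Nr2e1 (TLX), known as a receptor of neural progenitors, read 7.92, 7.99 and 7.46 against 7.66, 7.28 and 7.21, a difference of -0.41 ± 0.24 (limma adjusted p = 0.705). Nr2e3, known from photoreceptors, read 6.74, 7.42 and 6.69 against 7.35, 7.66 and 7.12, a difference of 0.42 ± 0.28 (limma adjusted p = 0.721); its spot on transgenic 4 lay in a bright patch (0.80). In each of these 3 genes 1 array breaks the order of the groups: wild-type 2 or transgenic 4 in Nr2f1, wild-type 4 or transgenic 1 in Nr2e1, and wild-type 2 in Nr2e3. Nr2f2 (COUP-TFII) read 7.09 on wild-type 1 and between 8.87 and 10.05 on the other 5 arrays, so its difference of 0.57 ± 0.76 rests on that array and was -0.29 without it; its second, dimmer probe gave 0.20 ± 0.32. Nr2c1 (testicular receptor 2) was at 0.07 ± 0.26, and Nr2f6 (EAR2) at -0.26 ± 0.24, or -0.54 with median scaling of the arrays in place of quantile normalization.

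The genes best known from gonad, adrenal and germ cells also gave signal. Nr6a1 (germ cell nuclear factor), a repressor in germ and stem cells, read 8.84, 8.63 and 8.88 in wild-type livers against 8.47, 8.47 and 8.31 in transgenic livers. The groups did not overlap, and the difference was -0.36 ± 0.19 (limma adjusted p = 0.691); after local correction it was -0.21 and the groups overlapped. Nr0b1 (DAX1), a corepressor, was above background on all 6 arrays with a difference of 0.22 ± 0.31. Nr5a1 (steroidogenic factor 1) had probes that disagreed in direction. The brighter read 9.06, 8.92 and 9.45 against 9.51, 9.18 and 9.58 (0.28 ± 0.23), and after local correction its difference was 0.0015. The other read 6.44, 5.01 and 7.94 against 5.85, 6.44 and 5.80 (-0.44 ± 0.72), with a bright patch on transgenic 3 (1.59). Its own difference after local correction is not given here. Markers of adrenal and gonadal steroid-producing cells were not well above background: of 4 with a probe (Mc2r, Star and Hsd3b1 among them), 0 passed on at least 3 arrays and 3 on none, and their summed signal was 63.3 to 94.6 in wild-type livers and 69.6 to 138 in transgenic livers. What the Nr5a1 and Nr0b1 probes read in liver was not tested.

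The clock-linked receptors gave overlapping groups. Rora, which opposes the REV-ERB repressors at clock genes, was at 0.20 ± 0.26, and Rorb was above background on 1 array, with -0.32 ± 0.24. Of 13 circadian clock genes and of 8 REV-ERB and ROR targets, 0 had an unadjusted p under 0.05 in limma; Cry2, a clock repressor, was at 0.36 ± 0.20.

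Outside the 31, 10 of 11 further receptors of the superfamily had a probe. Nr0b2 (SHP), the bile acid induced corepressor that binds many of the receptors above, read 10.43, 10.30 and 9.05 in wild-type livers against 8.36, 8.54 and 8.29 in transgenic livers. Its groups did not overlap, and at -1.53 ± 0.39 (limma adjusted p = 0.691) it was the one of these 10 with an unadjusted p under 0.05. Hnf4a, the hepatocyte identity receptor, was at 0.45 ± 0.21 and Nr1h4 (FXR), the bile acid receptor, at 0.26 ± 0.19, both with groups apart upwards. Their spots on transgenic 4 lay in bright patches (0.53 and 0.87), and with the local deviation subtracted the differences were 0.0049 and -0.30, with overlapping groups. Ppara, the fatty acid sensor, was at -0.40 ± 0.22 with groups apart downwards; its spot on transgenic 4 also lay in a bright patch (1.60), and after local correction it was at -0.88 with overlapping groups. Nr0b2 was at -1.51 after the same correction, with groups still apart. Among 18 enzymes that make or remove receptor ligands, 1 was higher at an unadjusted p under 0.05 (Cyp39a1, an oxysterol hydroxylase, 0.94 ± 0.27) and 1 lower (Srd5a1, steroid 5-alpha reductase, -1.08 ± 0.26), and 0 passed the adjusted threshold in limma.

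The count of 3 genes at an unadjusted p under 0.05 depended on single arrays. Without transgenic 1 it was 0, without wild-type 1 it was 1 (Esr1) and without transgenic 4 it was 1 (Nr4a1). The signs of Esr1, Pgr, Nr4a1, Thrb, Nr1h3, Rxrb, Esrra and Nr6a1 were the same in each fit with 1 array left out. The differences then ranged from 0.65 to 1.46 for Esr1, from 0.63 to 1.35 for Pgr, from 0.62 to 1.23 for Nr4a1 and from -0.72 to -0.28 for Esrra. Thrb ranged from 0.24 to 0.40 and Nr6a1 from -0.44 to -0.31. The 19 receptor genes not given on every array by this rule had differences from -0.64 to 0.57, 11 positive and 8 negative, with adjusted p of 0.722 or more in limma. Array by array, the highest of the 6 values was found most often on transgenic 4 (9 of 31 genes) and wild-type 1 (8 of 31 genes), the least bright array before normalization.

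**Figure D4:**
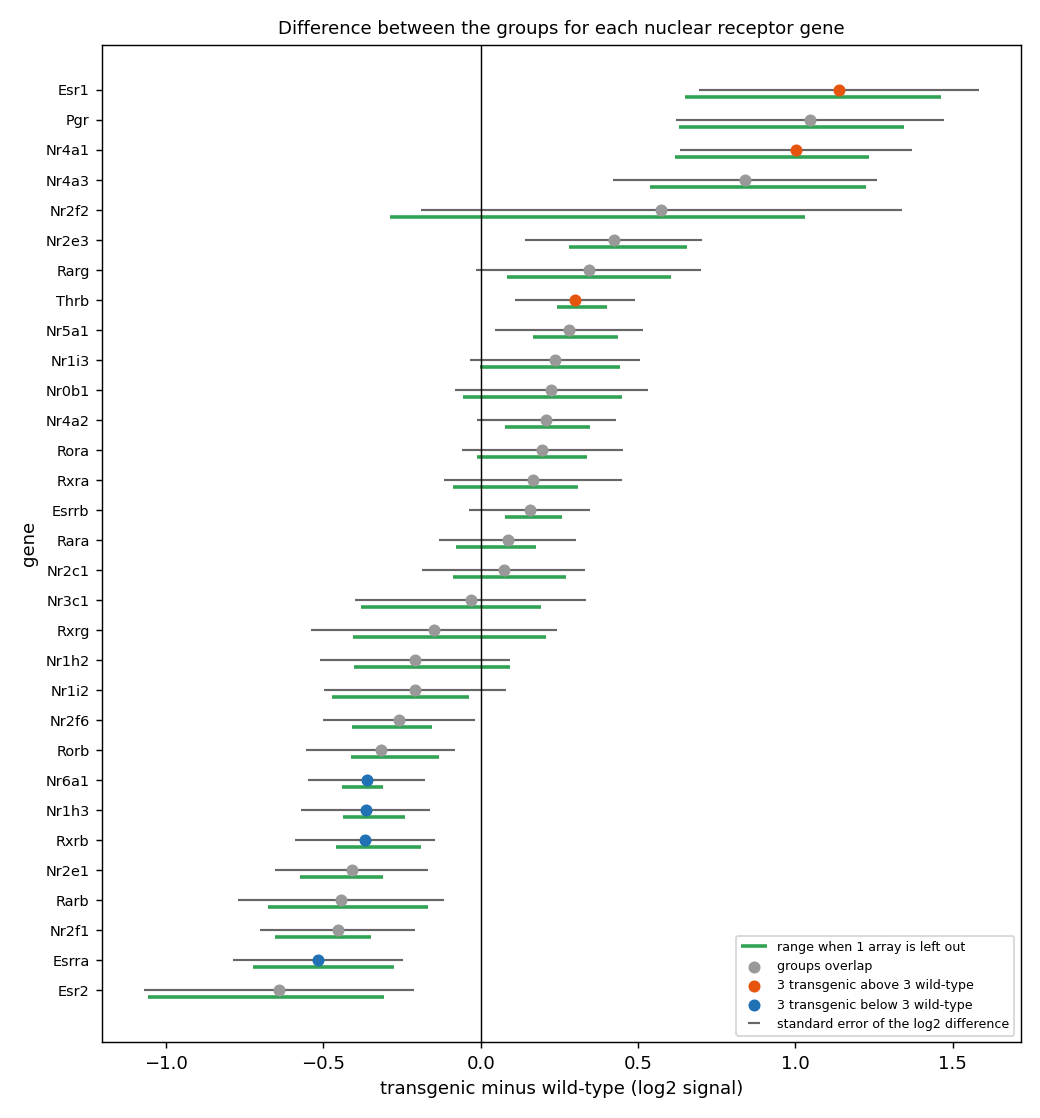
Transgenic minus wild-type log2 signal (horizontal axis) for each of the 31 receptor genes (vertical axis), with the standard error in grey and, in green, the range when 1 array is left out in turn. Orange and blue points are the genes whose groups do not overlap; Esr1, Pgr, Nr4a1 and Nr4a3 lie highest, and the genes near the middle have a standard error that spans 0.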

How the data were processed

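Total RNA of each liver was amplified to biotin-labelled cRNA and stained with an Alexa-647 streptavidin dye, per the labels' protocols. The deposited array files hold 1 intensity per spot (35587 spots, 620 of them bacterial controls). Background had been taken out of each spot before deposit, per the file headers. The authors' table of the series holds the same intensity divided by a constant of each array (largest difference from the files' own scaled column 0; column medians 0.998 to 0.999), linear and not centred by gene.

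Control spots were left out. Each array was given a floor at the percentile 1 of its positive intensities, then log2 values were quantile normalized between arrays. The probe with the highest mean stood for a gene. Of 34967 mouse probes, 14763 matched a RefSeq gene and 20204 did not; 2 receptor genes had more than 1 probe. Groups were compared with limma 3.58.1 (R 4.3.3, two-sided, Benjamini-Hochberg over all features, threshold 0.05). A run on simulated data checked only the direction of the larger planted differences. How many of them passed the threshold is not given here. Plots used matplotlib 3.10.9. Each mouse gave 1 array, so the spread behind the p-values holds that between mice and that between arrays together. In limma each gene's spread is also drawn toward that of all features.

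The members and gene lists were chosen with earlier results of these data known. Values on every array are given for members above background on at least 3 arrays with an unadjusted p under 0.05 or groups apart, then by smallest p up to 12 members, and for both probes where they disagree. Esr1 met the rule of 3 arrays only through the transgenic arrays, where it was high. Some liver receptors are also given, chosen after their values were seen. Of each list, counts and up to 3 genes of smallest p are given. Every list count stands against the shares of all features: 4.37% higher and 2.72% lower at an unadjusted p under 0.05 in limma. Groups were apart upwards in 10.1% of all features and downwards in 5.9%. The alternatives are described in the closing section.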

Additional observations from a re-analysis of the deposited data

How the results depend on the processing

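No receptor gene reached an adjusted p under 0.05 in limma under any alternative run; the smallest was 0.565, without wild-type 4. Of all features, 0 to 1 did with 1 array left out (1 without wild-type 1 and 1 without transgenic 4). The count of features at an unadjusted p under 0.05 that were higher, 1493, became 943 with median scaling, 943 with the authors' value table, 679 with the replicate block, and 953 to 1560 with 1 array left out. The count that were lower, 931, became 535 and 605 among features above background on all 6 or at least 3 arrays, and 641 to 1331 with 1 array left out; it was 1312 with median scaling, 1309 with the authors' table and 1357 with local correction. The share of higher ones was 61.6%, against 41.8% with median scaling, 41.9% with the authors' table, 47.6% with local correction of patches and 50.4% with the block.

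The receptors' median difference, 0.085, was -0.0448 after local correction of patches, and 0.04 to 0.13 with 1 array left out. It was -0.001 with median scaling and -6e-04 with the authors' value table. Receptor genes higher at an unadjusted p under 0.05 numbered 1 where only genes above background on all 6 arrays were kept, which drops Esr1 and Nr4a1, and 0 to 3 with 1 array left out. The number lower, 0, was 1 (Nr6a1) with 50 added before log2, and 0 to 1 with 1 array left out. Genes with groups apart upwards numbered 1 with the filter on all 6 arrays and 3 to 7 with 1 array left out, and 4 to 8 were apart downwards. Groups of 3 against 2 separate more often: with 1 array left out, 13.7% to 16.8% of all features were apart upwards and 7.93% to 14.7% downwards. The 7 upwards (22.6% of members, without wild-type 4) stand beside 16.6% of features, and the 8 downwards (25.8%, without transgenic 4) beside 10.4%. After local correction, Esr1, Nr4a1 and Esrra were still apart, while Thrb, Nr1h3, Rxrb and Nr6a1 were not, and Nr2e1 and Nr2f1 were. The signs of these 7 first-named genes and of Pgr were the same under every alternative run. Other receptor genes turned: 6 with local correction (Rxra, Rxrg, Rara, Nr3c1, Esrrb, Nr2c1), 5 without transgenic 4 (Nr1i3, Rxra, Rxrg, Nr3c1, Nr0b1) and 0 to 3 under each other alternative. Median scaling left Pgr and Nr4a1 at an unadjusted p under 0.05, with Esr1 at 0.0581.

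Replicate numbers 1 and 4 occur in both groups, but deviations of same-numbered arrays correlated at 0.06 and 0.058 over features, so the numbers pair nothing that these data show. The replicate block leaves wild-type 2 and transgenic 3 without a partner, so its differences rest on the arrays numbered 1 and 4 alone. In that fit, 3 receptor genes (Pgr, Nr4a1, Nr4a3) were higher at an unadjusted p under 0.05 and 0 passed the adjusted threshold. It takes no account of transgenic 3, which lay below wild-type 4 for Pgr and Nr4a3. With background set at 2 or 5 deviations, 26 and 25 receptor genes passed on all 6 arrays.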
